A study of Mus musculus with 16 samples.

Results

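Cells washed from the airways of the lung (bronchoalveolar lavage, BALF) were compared with cells washed from the abdominal cavity (peritoneal lavage, PLF) of the same mice. The comparison used 6 of the 16 libraries of the series, 3 from BALF and 3 from PLF, chosen by their titles. They came from mice 1, 2 and 4, all wild type C57BL/6, and each mouse gave 1 library of each lavage. Neither lavage was cultured or, as far as the labels say, sorted or treated, and age and sex are not given in the labels. The study set out to describe alveolar macrophages grown outside the body. From the same 3 mice it also made bone marrow derived macrophages (BMDM) and cultured alveolar macrophages (mexAM), with 3 libraries each. Those 6 culture libraries served here as reference levels, and the other 4 libraries, pool cultures, were not used.

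Alveolar macrophages sit on the air side of the lung and clear surfactant lipids, and they depend on GM-CSF and TGF-beta signals that sustain the nuclear receptor PPARgamma. The large macrophages of the peritoneum depend on M-CSF and retinoic acid, and the transcription factor GATA6 sets much of their gene programme. Peritoneal fluid is also known to hold B-1 cells and other B cells, T cells, mast cells and smaller monocyte-derived macrophages, whereas the lavage of a healthy lung holds mainly alveolar macrophages.

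Library totals in genes lay between 985582 and 1664635 counts in BALF and between 1121293 and 1622236 in PLF. Levels are given as CPM, each count divided by the scaled total of its library, and 3 values in a row stand for mice 1, 2 and 4. The files counted 20.5% ± 0.809 (SD, n = 3) of reads outside genes in BALF and 29.0% ± 1.22 (SD, n = 3) in PLF. Mitochondrial transcripts took 14.2% ± 2.10 (SD, n = 3) of gene counts in BALF and 10.5% ± 0.506 (SD, n = 3) in PLF. Most of this share was mitochondrial ribosomal RNA, at 10.3% ± 1.33 in BALF and 6.40% ± 1.80 in PLF (SD, n = 3). Each of these shares separated the lavages without overlap. An exact two-sided permutation test over 3 against 3 libraries gave p = 0.1 for each, the smallest it can give. The PLF library of mouse 1 stood apart within its lavage. Its counts differed from those of PLF of mice 2 and 4 with chi-square values of 19.9 and 23.1 for each degree of freedom. Between PLF of mice 2 and 4 the value was 2.43. Between BALF libraries the values were 7.87 (mice 1 and 2), 7.08 (mice 1 and 4) and 13.1 (mice 2 and 4). The gene Gm42418 took 13.3%, 4.08% and 3.81% of gene counts in PLF of mice 1, 2 and 4. In BALF of these mice it took 11.05%, 4.27% and 13.6%. Mitochondrial ribosomal RNA took 8.47%, 5.19% and 5.54% in PLF of these mice. The part of these shares in the chi-square values was not tested. With Gm42418 and mitochondrial ribosomal RNA left out of the fit, 1921 genes were called higher in BALF and 2093 in PLF. That fit also called 3981 of the 4031 genes of the reported fit, and none of the 8 mitochondrial genes it tested. Beyond this, the part of these read shares in the gene differences below was not tested.

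Marker genes separated the lavages in the directions that the labels name. Among all 10011 genes tested, 19.5% were higher in BALF and 20.8% in PLF. Of 30 tested genes that mark alveolar macrophages, 29 were higher in BALF and 1, the oxidised lipoprotein receptor gene Olr1, was higher in PLF, with a median log2 change of 5.40 (5.25 with genes at 0 counts set to their limits). Their summed level was 38303, 36123 and 33617 CPM in BALF and 3014, 3898 and 4173 CPM in PLF. Of 24 tested markers of large peritoneal macrophages, 23 were higher in PLF and none in BALF, with a median of -8.18 (-7.22 with limits) and sums of 471, 481 and 521 CPM in BALF and 26238, 31383 and 33380.1 CPM in PLF. The remaining marker, the coagulation factor gene F10, was read at 85.8, 79.1 and 138 CPM in BALF and 158, 407 and 260.1 CPM in PLF and did not pass the test (adjusted p = 0.0534). The pan-macrophage list, genes shared by most macrophages, summed to 36326, 29891 and 31854 CPM in BALF and 27816, 27854 and 26866 CPM in PLF. These sums were of the same order in both lavages, with every BALF library above every PLF library.

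Siglecf, the sialic acid binding receptor used to identify alveolar macrophages, was read at 360.1, 324 and 249 CPM in BALF and 3.95, 11.5 and 4.71 CPM in PLF. Every BALF library lay far above every PLF library (log2 change 5.58 ± 0.36, adjusted p = 2.60e-09). Car4, a carbonic anhydrase of alveolar macrophages, was read at 349.6, 363 and 333 CPM in BALF and 5.93, 8.23 and 1.77 CPM in PLF (log2 change 6.09 ± 0.34, adjusted p = 5.03e-10). Timd4, the phosphatidylserine receptor of resident peritoneal macrophages, had 0.698, 0 and 1.79 CPM in BALF and 111, 120.1 and 182 CPM in PLF (count ratio 161 with a 95% exact interval of 55.0 to 785, adjusted p = 5.10e-08). Icam2, an adhesion molecule used to sort large peritoneal macrophages, had 0.698, 1.13 and 0.895 CPM in BALF and 87.0, 107 and 102 CPM in PLF (count ratio 112 with a 95% exact interval of 38.2 to 547, adjusted p = 5.35e-09). Both pairs of markers split the 6 libraries without overlap. Standard errors (SE) and adjusted p come from edgeR throughout, and log2 changes are BALF minus PLF. Where the lower lavage held 1 to 3 counts in all, the ratio of scaled counts is given with its exact interval, which covers counting error only. Where it held 0, the fold is a lower limit that assigns 3 counts to that group.

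Markers of B, T and mast cells were on the peritoneal side. Of 19 tested B cell genes, 18 were higher in PLF, as were all 14 tested T and NK cell genes and all 11 tested mast cell genes. The B cell list summed to 76.1, 89.2 and 43.9 CPM in BALF and 4193, 4706 and 4379.8 CPM in PLF. The T and NK cell list summed to 9.07, 12.4 and 17.0 CPM in BALF and 497, 534 and 564 CPM in PLF, and the mast cell list to 3.49, 2.26 and 6.27 CPM in BALF and 2181, 2109.9 and 2005 CPM in PLF. No library of one lavage reached the range of the other for any of the 3 lists. The short B-1 cell list went the other way in its sum, 841, 945 and 926 CPM in BALF and 199, 219.7 and 239 CPM in PLF, most of it from the transcription factor gene Bhlhe41, which macrophages of the lung also express and which was read at 805, 907 and 887 CPM in BALF and 158, 149.8 and 159 CPM in PLF (log2 change 2.48 ± 0.19, adjusted p = 1.51e-08). Of its other members Zbtb32 was higher in PLF (log2 -2.78 ± 0.59), Spn was not called (adjusted p = 0.620), and Cd5, too low to be tested, was read at 0, 0 and 1.79 CPM in BALF and 4.61, 6.58 and 7.06 CPM in PLF. The B cell, T and NK cell and mast cell lists had median log2 changes of -8.82, -5.85 and -8.38 (-7.52, -4.76 and -5.96 with limits). With the genes of other cells left out before scaling, 1937 genes were called higher in BALF and 2020 in PLF. What part RNA of these cells has in the other differences was not tested. In bulk RNA, fewer cells of a type and less RNA per cell cannot be told apart. Eosinophil, neutrophil, dendritic cell and mesothelial lists stayed at or under 300.1 CPM in every lavage library.

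**Figure D1:**
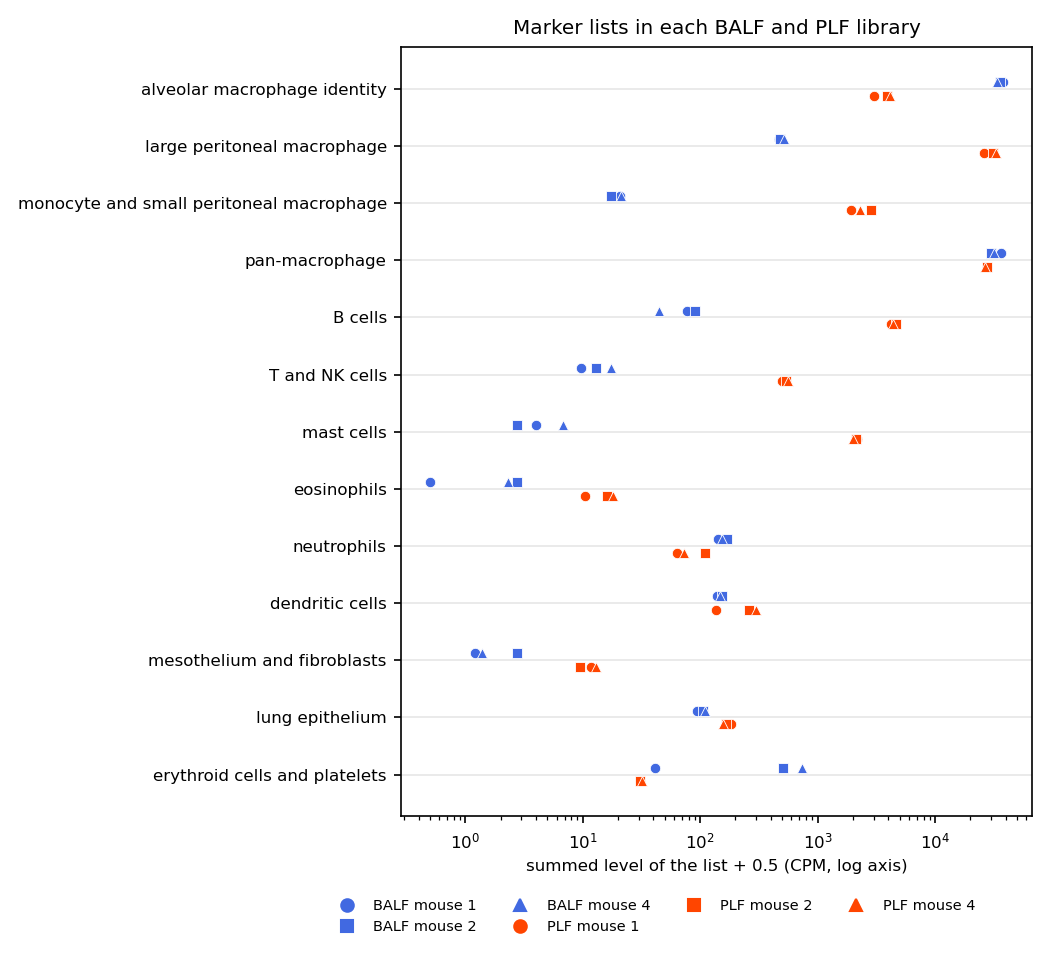
Summed level of each marker list (CPM + 0.5, log axis) in the 3 BALF (blue) and 3 PLF (orange) libraries, with 1 symbol per mouse. Pan-macrophage sums lie close together without overlap, B, T and NK and mast cell sums lie apart by more than 10 times, and erythroid sums are high in BALF of mice 2 and 4 (504 and 735 CPM).

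Over the whole table, 4031 of 10011 genes tested differed between BALF and PLF at an adjusted p under 0.05 (40.3%). Of these, 1952 were higher in BALF and 2079 in PLF. At 2-fold or more there were 1366 and 1593. The median log2 change of all genes tested was -0.01, and the 3 BALF libraries did not overlap the 3 PLF libraries for 24.5% of genes on the BALF side and 25.5% on the PLF side. Counts of list members are to be read against these shares. The members of a list were chosen with earlier results known, so each list is described by its count, its median and, for some lists, its summed level in each library, with no p-value.

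Genes with the largest differences on the lung side were membrane transporters, receptors and secreted proteins of alveolar macrophages, together with some genes better known from epithelia. Chil3, the secreted chitinase-like protein Ym1 (chromosome 3, 106147554 to 106167564, minus strand, GRCm38), was read at 12171, 9069 and 7601 CPM in BALF and 97.5, 133 and 67.7 CPM in PLF (log2 change 6.60 ± 0.36, adjusted p = 4.19e-10). Slc39a2, a zinc importer, was read at 262, 252 and 329 CPM in BALF and 3.30, 2.47 and 0.588 CPM in PLF (log2 change 7.05 ± 0.34, adjusted p = 1.27e-10). Ctsk, the lysosomal protease cathepsin K, was read at 1239, 952 and 1320.4 CPM in BALF and 11.9, 18.1 and 12.4 CPM in PLF (log2 change 6.39 ± 0.32, adjusted p = 1.46e-10). In each of these genes the lowest BALF library exceeded the highest PLF library by more than 10 times.

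Adrb1, the beta-1 adrenergic receptor (chromosome 19, 56722199 to 56733113, plus strand), was read at 90.7, 83.6 and 61.8 CPM in BALF and 0.659, 0.823 and 0 CPM in PLF (count ratio 176 with a 95% exact interval of 48.3 to 1462, adjusted p = 1.03e-08). Flvcr2, a choline transporter of the plasma membrane, was read at 112, 129.9 and 60.9 CPM in BALF and 1.32, 0 and 0.588 CPM in PLF (count ratio 148 with a 95% exact interval of 50.2 to 721, adjusted p = 2.44e-07). Lepr, the leptin receptor, was read at 95.6, 96.0 and 87.7 CPM in BALF and 0, 0.823 and 1.18 CPM in PLF (count ratio 138 with a 95% exact interval of 46.7 to 671, adjusted p = 2.09e-09). These 3 genes were close to undetected in PLF. Slc9a4, a sodium and hydrogen exchanger (ratio 163, 95% interval 55.2 to 792), and Atp6v0d2, a subunit of the vacuolar proton pump (log2 6.85 ± 0.65), were likewise higher in BALF. Ear1, an eosinophil-associated ribonuclease that mouse alveolar macrophages also make (log2 6.83 ± 0.30), and Gal, the neuropeptide galanin (log2 6.66 ± 0.64), separated the lavages to a similar degree. The genes of epithelial fame were Perp, a desmosome component (log2 6.62 ± 0.40), Krt79, a keratin (log2 6.31 ± 0.42), and Trim29 (log2 6.42 ± 0.47). Cpne5, a copine (log2 6.61 ± 0.53), and Rufy4, which takes part in autophagosome handling (log2 6.13 ± 0.57), completed the 15 genes.

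The cultures did not treat these 15 genes alike. In mexAM, Flvcr2 averaged 133 CPM, Slc39a2 383 CPM and Perp 193 CPM, above every fresh BALF library. Adrb1 averaged 1.64 CPM there, Gal 6.35 CPM and Cpne5 10.8 CPM, below every fresh BALF library. In BMDM none of the 15 averaged above 241 CPM, the level of Chil3.

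**Figure D2:**
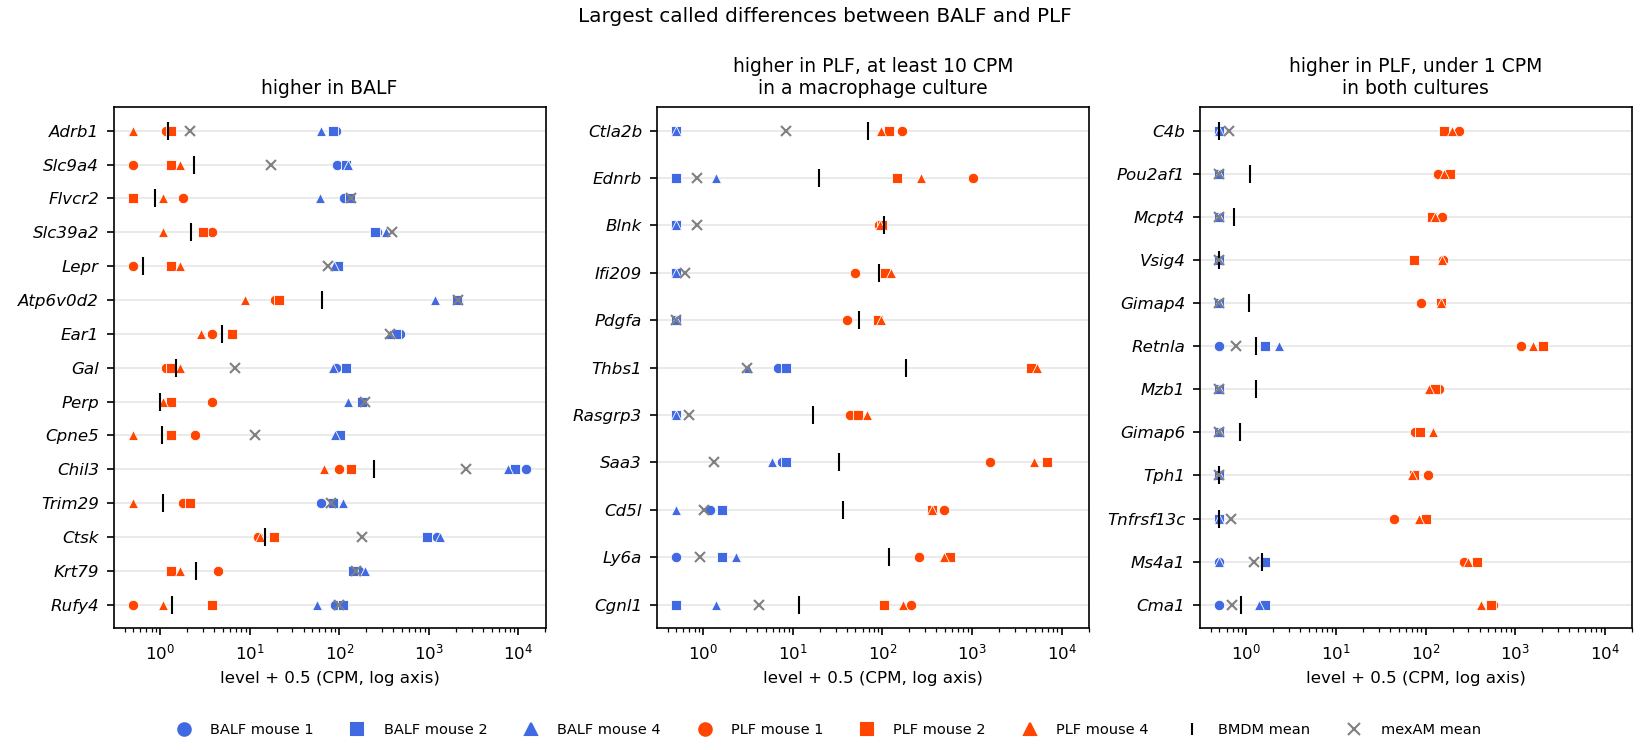
Level of each named gene (CPM + 0.5, log axis) in every BALF and PLF library, with the mean of the 3 BMDM libraries as a black bar and of the 3 mexAM libraries as a grey cross. In all 3 panels the blue and orange symbols do not overlap, which was a condition for choosing these genes. The right panel shows the genes under 1 CPM in both cultures.

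Promoter sequence was searched for 2 motifs linked to these cells. One was the GATA motif, AGATAA or TGATAA, bound by GATA6 and its relatives, and the other the core of the motif bound by the macrophage factor PU.1, GAGGAAGT. Both strands of the 250 bases before each RefSeq start (build GRCm38.p6) were read. A GATA motif was found for 1 of the 11 genes with an entry among the 15 higher in BALF. Among the PLF genes that are also read in a macrophage culture, described below, it was found for 3 of 9 with an entry out of 12. Over all 32851 promoter entries 16.6% held it. The PU.1 core was found for none of the 11 and for 1 of the 9 (Rasgrp3), against 2.44% of all entries. A gene was counted if any of its starts held the motif, whereas both percentages are per entry, so the measures are not the same. The 3 largest changes with an entry in each group held neither motif. Of the 4 genes with a GATA motif, 3 are shown 5′ to 3′ on the gene's strand, chosen because they hold a match, with the match in capitals. Rasgrp3 has 2 starts and is not shown.

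Chil3, chr3:106167565-106167814, minus strand: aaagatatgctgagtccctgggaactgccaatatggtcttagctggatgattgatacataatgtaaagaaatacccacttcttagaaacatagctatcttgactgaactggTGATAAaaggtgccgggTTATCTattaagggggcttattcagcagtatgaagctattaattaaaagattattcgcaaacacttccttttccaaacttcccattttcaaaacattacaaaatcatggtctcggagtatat

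Saa3, chr7:46715677-46715926, minus strand: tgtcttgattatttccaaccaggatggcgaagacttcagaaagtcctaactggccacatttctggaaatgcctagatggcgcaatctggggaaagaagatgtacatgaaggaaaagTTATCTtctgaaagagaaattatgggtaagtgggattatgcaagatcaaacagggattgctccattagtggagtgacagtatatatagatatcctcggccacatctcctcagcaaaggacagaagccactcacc

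Cd5l, chr3:87357631-87357880, plus strand: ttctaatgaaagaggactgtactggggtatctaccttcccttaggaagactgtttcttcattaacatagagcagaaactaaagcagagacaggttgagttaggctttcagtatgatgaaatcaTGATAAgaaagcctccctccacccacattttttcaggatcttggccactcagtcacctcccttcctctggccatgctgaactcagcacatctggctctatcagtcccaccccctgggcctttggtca

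The Chil3 window, from a gene higher in BALF, held 2 matches, and the Saa3 and Cd5l windows, from genes higher in PLF, held 1 each. TTATCT is the AGATAA motif read on the other strand. A match of letters describes the sequence and no binding was measured.

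Genes higher in PLF were divided by their level in the macrophage cultures, to set apart what a macrophage culture also transcribes from what it does not. Of the 2079 genes, 1563 (75.2%) averaged at least 10 CPM in BMDM or mexAM, 144 (6.93%) averaged under 1 CPM in both, and 372 lay between. Among all genes tested, 84.2% reached 10 CPM in a culture and 1.61% stayed under 1 CPM in both. On the BALF side the counts were 1816 (93.0%), 13 and 123. The mexAM culture holds alveolar macrophages and no culture came from peritoneal cells, so these shares are not on an equal footing for the lavages. The 144 PLF genes without a level in culture summed to 9784 ± 870 CPM in PLF and 57.4 ± 18.4 CPM in BALF (SD, n = 3). They included 27 members of the other-cell lists and 7 members of the macrophage lists, and 5 were immunoglobulin segments. This division describes levels and does not give the cell that made the RNA. BMDM held 471 CPM of the T and NK cell list, almost all of it from Il7r and Cd28, and 313 CPM of the B cell list.

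**Figure D3:**
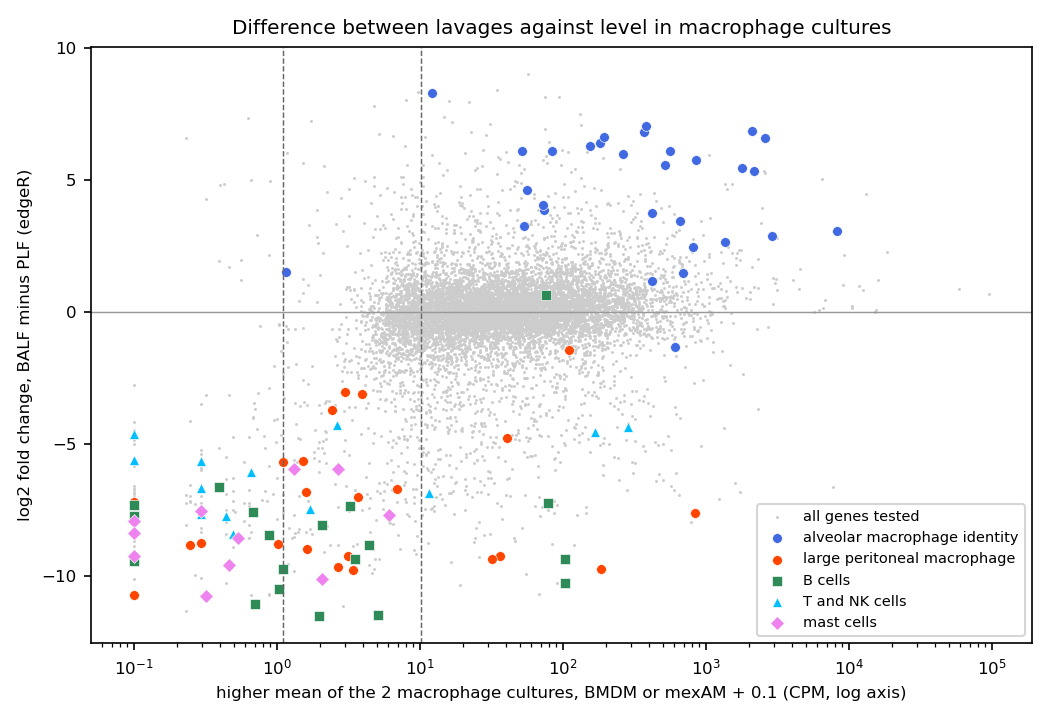
Log2 change between BALF and PLF against the higher of the BMDM and mexAM means (CPM + 0.1, log axis) for all 10011 genes tested, with dashed lines at 1 and 10 CPM. Mast cell genes (diamonds) lie left of the 10 CPM line, alveolar macrophage genes (blue) lie to its right except Cd2, and large peritoneal macrophage genes (orange) lie on both sides. Log2 changes of genes with 0 counts in a lavage are fitted values.

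The 12 largest PLF genes that a macrophage culture also read included secreted and matrix-associated proteins. Thbs1, the matrix glycoprotein thrombospondin-1 (chromosome 2, 118111876 to 118127133, plus strand), was read at 6.28, 7.91 and 2.69 CPM in BALF and 4623, 4579 and 5359 CPM in PLF (log2 change -9.75 ± 0.37, adjusted p = 1.55e-11). Saa3, an acute phase serum amyloid protein of macrophages (chromosome 7, 46711998 to 46715700, minus strand), was read at 6.98, 7.91 and 5.37 CPM in BALF and 1601, 6793 and 4865 CPM in PLF (log2 change -9.35 ± 0.56, adjusted p = 5.39e-09). Cd5l, a secreted scavenger protein of tissue macrophages (chromosome 3, 87357881 to 87371073, plus strand), was read at 0.698, 1.13 and 0 CPM in BALF and 480.4, 354 and 360.1 CPM in PLF (count ratio 686 with a 95% exact interval of 189.7 to 5672, adjusted p = 5.03e-10). BALF held under 10 CPM of each, and PLF of mouse 1 was the lowest of its group for Saa3 and the highest for Cd5l.

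Ednrb, the endothelin receptor type B, was read at 0, 0 and 0.895 CPM in BALF and 1036, 146 and 268 CPM in PLF. Its PLF level in mouse 1 was several times that of mice 2 and 4, and all exceeded BALF (count ratio 1708 with a 95% exact interval of 306 to 67502, adjusted p = 1.24e-05). Blnk, the B cell linker adaptor, had 0 counts in all 3 BALF libraries and 90.3, 99.6 and 93.5 CPM in PLF (at least 108-fold, adjusted p = 1.08e-08), and BMDM averaged 103 CPM, a level as high as that of PLF. Ctla2b (at least 143-fold), the interferon-inducible Ifi209 (at least 107-fold), the growth factor gene Pdgfa (at least 85.3-fold) and the Ras activator Rasgrp3 (at least 62.8-fold) had 0 counts in all 3 BALF libraries. Ly6a, encoding the surface protein Sca-1 (ratio 489.8, 95% interval 167 to 2377), and Cgnl1, a junction protein (ratio 564, 95% interval 101 to 22317), were also higher in PLF. For each gene named from this group the culture that read them at 10 CPM or more was BMDM, and mexAM averaged under 10 CPM.

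The 12 largest PLF genes under 1 CPM in both cultures held markers of several cell types. Pou2af1, a B cell transcription coactivator, had 0 counts in all 3 BALF libraries and 136, 189 and 161 CPM in PLF (at least 183-fold, adjusted p = 1.45e-08). Ms4a1, which encodes CD20 of B cells, had 0, 1.13 and 0 CPM in BALF and 269.5, 375 and 301 CPM in PLF (count ratio 1066 with a 95% exact interval of 191 to 42154, adjusted p = 2.34e-09). Mzb1 of marginal zone and B-1 cells (at least 143-fold) and Tnfrsf13c, the BAFF receptor (at least 85.8-fold), went with them. Cma1, a mast cell chymase, had 0, 1.13 and 0.895 CPM in BALF and 566, 542 and 415 CPM in PLF (count ratio 862 with a 95% exact interval of 238 to 7121, adjusted p = 6.63e-11). Further genes of mast cells were Mcpt4, another chymase (at least 151-fold), and Tph1, the enzyme of serotonin synthesis (at least 96.1-fold). Gimap4 (at least 146-fold) and Gimap6 (at least 109.8-fold) encode GTPases known mainly from lymphocytes.

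The remaining 3 are known from peritoneal macrophages or from several cell types. Vsig4, the complement receptor of resident macrophages, had 0 counts in all 3 BALF libraries and 158, 73.2 and 154 CPM in PLF (at least 152-fold, adjusted p = 4.02e-06). Retnla, the resistin-like protein RELM-alpha, had 0, 1.13 and 1.79 CPM in BALF and 1162, 2051 and 1598 CPM in PLF (count ratio 1801 with a 95% exact interval of 616 to 8736, adjusted p = 6.03e-11). C4b, the complement component C4 (chromosome 17, 34728380 to 34743882, minus strand), had 0 counts in all 3 BALF libraries and 233, 159.6 and 198 CPM in PLF (at least 228-fold, adjusted p = 5.51e-09). Absence from a macrophage culture thus took in genes known from macrophages as well. Of the 23 large peritoneal macrophage genes higher in PLF, 5 reached 10 CPM in a culture, 12 lay between and 6 stayed under 1 CPM in both. For B cells the numbers were 3, 6 and 9 of 18, for T and NK cells 3, 2 and 9 of 14, and for mast cells 0, 4 and 7 of 11.

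B cell and T cell genes outside the largest 12 followed the same direction. Fcmr, the IgM Fc receptor (at least 257-fold), Bank1, a B cell adaptor (at least 246-fold), and Ighd, the constant region of IgD (at least 125-fold), had 0 counts in BALF. Cd79a, a chain of the B cell receptor, had 0 counts in all 3 BALF libraries and 10.5, 18.1 and 8.24 CPM in PLF (at least 13.4-fold, adjusted p = 4.37e-04). Ighm, the constant region of IgM, chosen after its values were seen, was read at 3.49, 0 and 1.79 CPM in BALF and 1690.4, 1259 and 1203 CPM in PLF (log2 change -9.37 ± 0.50, adjusted p = 5.51e-10). Among T cell genes Trbc2 had 0, 0 and 0.895 CPM in BALF and 65.9, 78.2 and 80.6 CPM in PLF (count ratio 257 with a 95% exact interval of 45.9 to 10194, adjusted p = 3.20e-08) and Cd3e had 0.698, 0 and 0 CPM in BALF and 11.2, 7.41 and 8.24 CPM in PLF (count ratio 31.0 with a 95% exact interval of 5.25 to 1255, adjusted p = 7.84e-04), a low level in PLF itself. The one B cell list member that was not called, the inhibitory receptor gene Cd22, was read at 64.2, 83.6 and 36.7 CPM in BALF and 15.2, 55.1 and 46.5 CPM in PLF (adjusted p = 0.204). Cpa3, the mast cell carboxypeptidase, had 0, 0 and 1.79 CPM in BALF and 685, 723 and 771 CPM in PLF (count ratio 1251 with a 95% exact interval of 346 to 10337, adjusted p = 6.39e-10).

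Transcription factors separated the lavages by tissue. Gata6, the factor of large peritoneal macrophages, had 0 counts in all 3 BALF libraries and 45.5, 56.8 and 50.6 CPM in PLF (at least 57.9-fold, adjusted p = 9.23e-07) and 0 counts in all culture libraries. Pparg, which encodes PPARgamma, was read at 117, 65.5 and 86.8 CPM in BALF and 5.93, 5.76 and 4.71 CPM in PLF (log2 change 4.04 ± 0.65, adjusted p = 2.47e-04). Neither gene overlapped between lavages. Id1, an inhibitor of helix-loop-helix factors (log2 5.43 ± 0.60), the liver X receptor gene Nr1h3 (log2 3.47 ± 0.50), Tcf7l2 of the Wnt pathway (log2 3.43 ± 0.21) and the repressor Bhlhe41 (log2 2.48 ± 0.19) were higher in BALF. Maf, a leucine zipper factor of many tissue macrophages, was read at 6.28, 4.52 and 4.48 CPM in BALF and 46.8, 74.9 and 81.2 CPM in PLF (log2 change -3.68 ± 0.38, adjusted p = 5.76e-07). It did not overlap between lavages, and BMDM averaged 2306 CPM. Irf4 (at least 76.5-fold) and Runx3 (log2 -6.05 ± 0.50) were higher in PLF. Of 28 tested factors 11 were higher in BALF and 6 in PLF, with a median log2 change of 0.61. Cebpb, read at 1101, 1252 and 857 CPM in BALF and 958, 1001 and 1154 CPM in PLF, was not called (adjusted p = 0.889).

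Genes of the growth factor pathways moved in both directions. Csf2rb, the beta chain gene of the GM-CSF receptor (log2 0.81 ± 0.23), and the related receptor gene Csf2rb2 (log2 1.11 ± 0.23) were higher in BALF. Csf2rb lost its call with library totals as the only scaling (adjusted p = 0.0817) and without BALF of mouse 4 (adjusted p = 0.0617). Csf1r, the M-CSF receptor, was read at 108, 90.4 and 177 CPM in BALF and 469.9, 517 and 509.5 CPM in PLF (log2 change -1.99 ± 0.28, adjusted p = 2.39e-05), with the 3 PLF libraries above all BALF libraries. The cytokine-induced inhibitor Socs3 was read at 12.6, 6.78 and 9.85 CPM in BALF and 92.3, 255 and 351 CPM in PLF (log2 change -4.52 ± 0.50, adjusted p = 4.84e-06), and Cish, a target of STAT5, at 3.49, 11.3 and 7.16 CPM in BALF and 23.1, 65.8 and 70.0 CPM in PLF (log2 change -2.93 ± 0.47, adjusted p = 1.08e-04). Both inhibitors were lowest in mouse 1 within PLF. In all, 2 of 12 genes of this list were higher in BALF and 6 in PLF (median -1.03). In the TGF-beta list, the receptor gene Tgfbr1 was higher in BALF (log2 0.89 ± 0.22). Smad3, a signal transducer (at least 54.8-fold), Ltbp1, which binds latent TGF-beta (ratio 584, 95% interval 161 to 4827), the ligand Tgfb2 (log2 -3.12 ± 0.60) and the inhibitor Smad7 (log2 -2.11 ± 0.32) were higher in PLF. That list counted 1 and 7 of 15, with a median of -0.28 that changed sign to 0.07 (5 and 5 called) when libraries were scaled to the pan-macrophage genes. With mouse as a block in the 6 lavage libraries it counted 4 and 7 of 14.

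Lipid genes were mostly higher in BALF. Of 16 tested genes of fatty acid uptake, storage and PPARgamma action, 13 were higher in BALF and 1, the hormone-sensitive lipase Lipe, in PLF (median 2.62). Cholesterol biosynthesis counted 18 of 21 higher in BALF and none in PLF (median 1.95), and fatty acid oxidation 19 of 22 and none (median 1.31). The uptake and storage list summed to 18076, 18916 and 17389 CPM in BALF and 4049.8, 2799 and 2814 CPM in PLF. Cholesterol biosynthesis summed to 1813, 2159.8 and 1985 CPM in BALF and 375, 562 and 500.1 CPM in PLF, and fatty acid oxidation to 1964, 1835 and 1684 CPM in BALF and 688, 584 and 507 CPM in PLF. None of these 3 sums overlapped between lavages.

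Among storage genes, Cidec, a lipid droplet protein, was read at 81.7, 47.4 and 71.6 CPM in BALF and 0.659, 0.823 and 1.18 CPM in PLF (log2 change 6.11 ± 0.49, adjusted p = 8.95e-08). Mgll, the monoglyceride lipase, was read at 295, 308 and 221 CPM in BALF and 3.95, 8.23 and 1.77 CPM in PLF (log2 change 5.95 ± 0.34, adjusted p = 5.85e-10). Lpl, the lipoprotein lipase, chosen after its values were seen, was read at 9347, 9824 and 11317 CPM in BALF and 813, 1417 and 1369 CPM in PLF (log2 change 3.08 ± 0.35, adjusted p = 1.92e-06). These 3 genes had comparable or higher means in mexAM (51.3, 1046 and 8247 CPM). Dgat2, an enzyme of triglyceride synthesis (ratio 27.1, 95% interval 7.05 to 231), and Angptl4, a secreted lipase inhibitor (log2 4.14 ± 0.59), were also higher in BALF. In the cholesterol pathway Sqle, squalene epoxidase, was read at 76.1, 83.6 and 85.9 CPM in BALF and 4.61, 6.58 and 11.8 CPM in PLF (log2 change 3.37 ± 0.30, adjusted p = 9.08e-08). Fdps (log2 3.99 ± 0.41), Dhcr7 (log2 3.46 ± 0.42) and Hsd17b7 (log2 3.01 ± 0.34), further enzymes of the pathway, went the same way. Peroxisomal enzymes led the oxidation list, with Acaa1b at 236, 306 and 152 CPM in BALF and 5.27, 8.23 and 4.71 CPM in PLF (log2 change 5.27 ± 0.34, adjusted p = 2.42e-09), and Hsd17b4 (log2 2.51 ± 0.27) after it.

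Cholesterol efflux genes did not share that direction. Apoe, the apolipoprotein that carries lipid out of macrophages, was read at 45.4, 61.0 and 67.1 CPM in BALF and 4889, 7224 and 4887 CPM in PLF (log2 change -6.62 ± 0.34, adjusted p = 1.75e-10), and BMDM averaged 7781 CPM. Abca1, a cholesterol exporter, was read at 23.7, 29.4 and 42.1 CPM in BALF and 395, 429.6 and 545 CPM in PLF (log2 change -3.85 ± 0.31, adjusted p = 3.90e-08). Abcg1, another exporter, was read at 653, 666 and 479 CPM in BALF and 85.7, 93.8 and 105 CPM in PLF (log2 change 2.66 ± 0.29, adjusted p = 9.97e-07). The 2 exporters thus differed in opposite directions between the lavages. Of 14 genes in the list of liver X receptor targets and efflux, 4 were higher in BALF and 7 in PLF (median -0.60). Lpcat3 (log2 1.55 ± 0.20) was among the former, and Acaca (log2 -2.11 ± 0.34) and Apoc1 (log2 -2.10 ± 0.43) among the latter. Fasn, fatty acid synthase, was called higher in BALF (log2 change 0.87 ± 0.32, adjusted p = 0.0389) but missed the threshold with only the 6 lavage libraries (adjusted p = 0.0618) and with the mouse block in those 6 (adjusted p = 0.0503), and the adjusted p reached 0.285 without BALF of mouse 4.

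**Figure D4:**
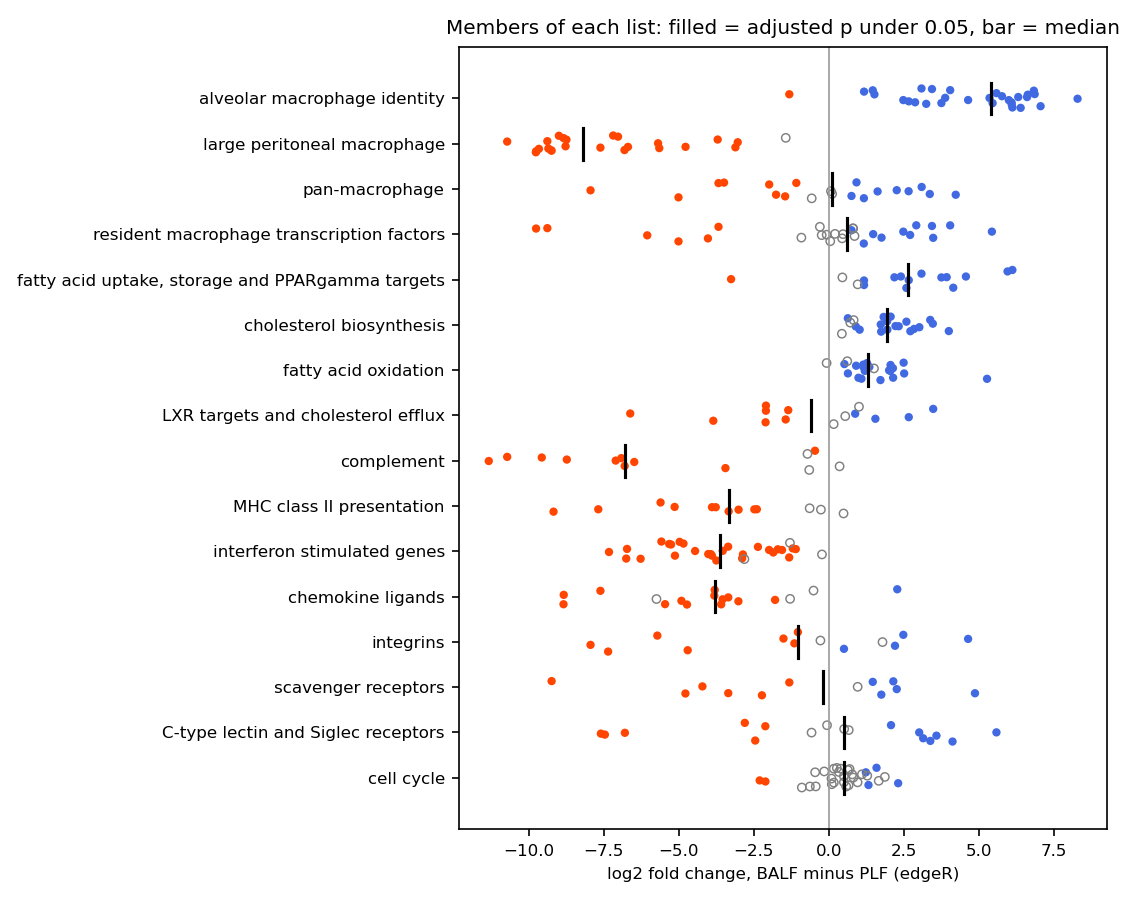
Log2 change (BALF minus PLF) of every tested member of 16 lists, with filled points for members called higher in BALF (blue) or PLF (orange), open points for those not called, and a bar at the list median. Medians of the fatty acid and cholesterol biosynthesis lists lie right of 0. Those of the liver X receptor and efflux, complement, MHC class II, interferon and chemokine lists lie left of it. The pan-macrophage list spans 0. Genes with 0 counts in a lavage are drawn at their fitted values.

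Common macrophage genes were not equal between lavages. Of 20 pan-macrophage genes 9 were higher in BALF and 8 in PLF, with a median of 0.09 that turned to -0.17 with library totals as the only scaling and to -0.05 without BALF of mouse 1. Lyz2, the lysozyme gene, was read at 16974, 11704 and 14990.5 CPM in BALF and 16212, 13078 and 12399 CPM in PLF and did not pass the test (adjusted p = 0.865). Adgre1, the F4/80 antigen, was read at 274, 247 and 201 CPM in BALF and 705, 598 and 687 CPM in PLF (log2 change -1.46 ± 0.19, adjusted p = 8.96e-06). Axl, a receptor for apoptotic cells, was read at 546, 506 and 567 CPM in BALF and 17.1, 46.1 and 24.7 CPM in PLF (log2 change 4.22 ± 0.35, adjusted p = 8.25e-08). The galectin gene Lgals3 (log2 3.36 ± 0.28), Mertk (log2 3.09 ± 0.31) and Cd68 (log2 2.26 ± 0.20) were higher in BALF, and Cd14, the lipopolysaccharide coreceptor, was higher in PLF (log2 -3.49 ± 0.32). Cd14 was among the 8 pan-macrophage genes higher in PLF, and all 8 reached 10 CPM in a macrophage culture.

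Integrins differed by alpha chain. Itgam, the alpha chain CD11b, was read at 5.58, 6.78 and 10.7 CPM in BALF and 1603, 1875 and 2200.5 CPM in PLF (log2 change -7.94 ± 0.29, adjusted p = 1.35e-11). Itgax, the alpha chain CD11c, was read at 577, 538 and 525 CPM in BALF and 9.89, 31.3 and 25.3 CPM in PLF (log2 change 4.64 ± 0.56, adjusted p = 2.20e-05). Their shared beta chain gene Itgb2 was read at 1219.9, 1288 and 1176 CPM in BALF and 934, 828 and 842 CPM in PLF, a small difference (log2 change 0.50 ± 0.19, adjusted p = 0.0492) that the mouse block ended (adjusted p = 0.0699), as did most alternatives, up to an adjusted p of 0.336 with library totals alone. Itgal (log2 2.48 ± 0.40) and Itgb5 (log2 2.20 ± 0.27) were higher in BALF, and Itga6 (log2 -4.71 ± 0.27), Itga9 (ratio 56.6, 95% interval 19.1 to 276) and Itgb7 (ratio 204, 95% interval 36.3 to 8081) in PLF. Over 13 tested integrin genes the counts were 4 and 7 (median -1.03).

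Uptake and lectin receptors included large differences in both directions. Mrc1, the mannose receptor, was read at 1028, 989.6 and 1056 CPM in BALF and 38.9, 41.1 and 25.9 CPM in PLF (log2 change 4.87 ± 0.28, adjusted p = 5.34e-10). Msr1, the class A scavenger receptor, was read at 15.4, 13.6 and 32.2 CPM in BALF and 468, 613 and 611 CPM in PLF (log2 change -4.78 ± 0.37, adjusted p = 4.04e-08). Marco, a related scavenger receptor, was read at 322, 354 and 481 CPM in BALF and 154, 100.4 and 164 CPM in PLF (log2 change 1.46 ± 0.31, adjusted p = 0.00119), so it was present in both lavages. Scavenger receptors counted 5 and 6 of 12, C-type lectin and Siglec receptors 7 and 6 of 17, apoptotic cell uptake 5 and 5 of 14, and Toll-like receptors and their partners 1 and 4 of 12, given as higher in BALF and then in PLF. Among all genes tested 40.3% were called in either direction, and the Toll-like list was near that share. Clec4n, which encodes Dectin-2 (log2 3.58 ± 0.45), Clec4a3 (log2 3.38 ± 0.29) and Siglec1 (ratio 18.9, 95% interval 6.07 to 95.3) were higher in BALF. Clec4e, which encodes Mincle (log2 -2.80 ± 0.60), Mgl2 (at least 15.2-fold), Siglecg, a B cell Siglec (ratio 139.5, 95% interval 24.7 to 5541), and Cd180 (log2 -4.48 ± 0.33) were higher in PLF. Tlr8 was the one gene of the Toll-like list higher in BALF (log2 2.60 ± 0.46), and Tlr4, read at 55.1, 38.4 and 48.3 CPM in BALF and 46.8, 44.4 and 41.8 CPM in PLF, did not pass (adjusted p = 0.739).

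Complement genes were mostly higher in PLF. They counted 10 of 13 higher in PLF and none in BALF, with a median of -6.80 (-6.49 with genes at 0 counts set to their limits) and sums of 549, 525 and 465 CPM in BALF and 4555, 5109 and 5296 CPM in PLF. C1qa, a chain of the first complement component, chosen with its values known, was read at 2.09, 3.39 and 9.85 CPM in BALF and 583, 585 and 669.6 CPM in PLF (log2 change -6.92 ± 0.35, adjusted p = 1.46e-10). Cd55, an inhibitor of complement activation (at least 66.7-fold), followed the same direction. C3, the central component, was read at 94.9, 89.2 and 86.8 CPM in BALF and 67.2, 80.6 and 64.7 CPM in PLF and was not called (adjusted p = 0.177). Of the 10 complement genes higher in PLF, 7 reached 10 CPM in a macrophage culture, 1 lay between and 2, C4b and Vsig4, stayed under 1 CPM.

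Coagulation genes differed in kind. F7, coagulation factor VII, was read at 158, 127 and 213 CPM in BALF and 10.5, 27.2 and 15.9 CPM in PLF (log2 change 3.24 ± 0.43, adjusted p = 2.47e-05), and thrombomodulin, Thbd, was also higher in BALF (log2 2.54 ± 0.34). F5, coagulation factor V, was read at 2.09, 1.13 and 0.895 CPM in BALF and 1543, 1204 and 1230.3 CPM in PLF (log2 change -9.76 ± 0.40, adjusted p = 2.94e-11). Serpinb2, an inhibitor of plasminogen activators, was read at 2.09, 1.13 and 2.69 CPM in BALF and 575, 1929 and 2622 CPM in PLF (log2 change -9.66 ± 0.63, adjusted p = 1.69e-08). F13a1, the A chain of factor XIII (log2 -6.61 ± 0.50), and F3, tissue factor (log2 -4.44 ± 0.98), were higher in PLF, and the list counted 3 and 5 of 13. Fn1, fibronectin, and Prg4, lubricin, both chosen after their values were seen, were also higher in PLF. Fn1 was read at 312, 319.7 and 307 CPM in BALF and 7916, 8273 and 9561 CPM in PLF (log2 change -4.78 ± 0.31, adjusted p = 2.41e-09), and Prg4 at 9.77, 2.26 and 7.16 CPM in BALF and 4740.4, 3854 and 4082 CPM in PLF (log2 change -9.26 ± 0.44, adjusted p = 1.27e-10). Every PLF library exceeded every BALF library by more than 10 times for both matrix genes.

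Chemokine genes counted 13 of 17 higher in PLF and 1 in BALF (median -3.81, -3.59 with limits). Ccl6, the exception, was read at 5114, 4643 and 4389.9 CPM in BALF and 905, 1019.6 and 996 CPM in PLF (log2 change 2.28 ± 0.31, adjusted p = 1.38e-05). Cxcl13, the B cell attracting chemokine, had 0.698, 0 and 0 CPM in BALF and 86.3, 104 and 312 CPM in PLF (count ratio 610.0 with a 95% exact interval of 109 to 24123, adjusted p = 5.63e-06). Ccl24, an eosinophil attractant, was read at 0.698, 1.13 and 1.79 CPM in BALF and 419.8, 753 and 533 CPM in PLF (log2 change -8.84 ± 0.39, adjusted p = 5.54e-11), and Pf4, platelet factor 4, at 5.58, 10.2 and 12.5 CPM in BALF and 2019, 1447 and 1963 CPM in PLF (log2 change -7.61 ± 0.35, adjusted p = 6.63e-11). All PLF libraries exceeded all BALF libraries for these 3. Eicosanoid enzymes counted 5 higher in BALF and 6 in PLF out of 17, and 9 and 6 when scaled to the pan-macrophage genes. Alox15, a lipoxygenase of resident peritoneal macrophages, was read at 4.19, 0 and 0 CPM in BALF and 645, 839 and 871 CPM in PLF (log2 change -8.78 ± 0.47, adjusted p = 2.72e-09). The prostacyclin synthase gene Ptgis (ratio 165, 95% interval 45.5 to 1371) and the cyclooxygenase genes Ptgs1 (log2 -5.04 ± 0.46) and Ptgs2 (log2 -7.44 ± 0.69) were higher in PLF, and the leukotriene A4 hydrolase gene Lta4h (log2 1.81 ± 0.38) and the prostaglandin D synthase gene Hpgds (log2 1.43 ± 0.28) in BALF.

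Antigen presentation genes were higher in PLF. Of 13 tested genes 10 were higher in PLF and none in BALF (median -3.34), with sums of 848, 869 and 958 CPM in BALF and 3713, 7214 and 6576 CPM in PLF. H2-Aa, an MHC class II alpha chain chosen after its values were seen, was read at 175, 183 and 201 CPM in BALF and 1072, 2379.8 and 2221 CPM in PLF (log2 change -3.34 ± 0.36, adjusted p = 2.12e-06). Ciita, the master regulator of these genes, had 0, 0 and 1.79 CPM in BALF and 23.1, 40.3 and 33.5 CPM in PLF (count ratio 54.6 with a 95% exact interval of 14.8 to 456, adjusted p = 6.83e-06), and the costimulatory receptor gene Cd40 had 0 counts in all 3 BALF libraries and 23.7, 56.0 and 53.0 CPM in PLF (at least 50.1-fold, adjusted p = 1.84e-06). PLF of mouse 1 was the lowest of its group for all 3 and still above BALF. H2-Ob (ratio 257, 95% interval 45.9 to 10194) and H2-DMb2 (log2 -5.14 ± 0.54), chains known best from B cells, were also higher in PLF. B cells carry MHC class II too, and the B cell list, at 4193, 4706 and 4379.8 CPM in PLF, had mouse 1 close to the others. The part of B cells in the class II difference was not tested. Of the 10 genes, 6 reached 10 CPM in a culture, through BMDM for H2-Aa (342 CPM), and 4 lay between.

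Interferon stimulated genes were low in BALF. Of 30 tested, 27 were higher in PLF and none in BALF (median -3.65, -3.29 with limits). The sum was 251, 253 and 245 CPM in BALF and 887, 2256 and 2387 CPM in PLF, so BALF was even across mice and PLF of mouse 1 was below the other PLF libraries. Ifitm3, an antiviral membrane protein, was read at 3.49, 6.78 and 2.69 CPM in BALF and 329, 539.8 and 463 CPM in PLF (log2 change -6.73 ± 0.36, adjusted p = 3.13e-10). Gbp5, an interferon-induced GTPase, had 0.698, 1.13 and 0.895 CPM in BALF and 11.9, 69.1 and 56.5 CPM in PLF (count ratio 51.2 with a 95% exact interval of 17.3 to 250.2, adjusted p = 5.06e-05), and Ifit2 had 0 counts in all 3 BALF libraries and 3.95, 10.7 and 21.2 CPM in PLF (at least 14.2-fold, adjusted p = 0.00190). Without 1 library at a time the count ran from 19 of 30 without PLF of mouse 4 to 28 of 30 without PLF of mouse 1, and the fit of the 6 lavage libraries alone called 16 of 18 tested.

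Inflammatory cytokine genes and their regulators counted 10 of 14 higher in PLF and 1 in BALF (median -1.80). The PLF count fell to 6 without BALF of mouse 1, without PLF of mouse 2 or without PLF of mouse 4. Il6, the cytokine interleukin-6, had 0.698, 1.13 and 0.895 CPM in BALF and 25.7, 83.9 and 159 CPM in PLF (count ratio 106 with a 95% exact interval of 36.1 to 517, adjusted p = 5.35e-05), and Il1b, interleukin-1 beta, was read at 20.9, 22.6 and 75.2 CPM in BALF and 76.4, 569 and 411 CPM in PLF (log2 change -3.15 ± 0.73, adjusted p = 0.00429). Il10, an anti-inflammatory cytokine, had 0.698, 1.13 and 0 CPM in BALF and 17.8, 28.8 and 57.1 CPM in PLF (count ratio 61.6 with a 95% exact interval of 16.8 to 513, adjusted p = 1.04e-05). For all 3 the PLF library of mouse 1 was the lowest of its lavage, and for Il1b it was only just above BALF of mouse 4. Il18, the exception, was read at 239, 220.3 and 298 CPM in BALF and 9.89, 18.1 and 17.7 CPM in PLF (log2 change 4.05 ± 0.24, adjusted p = 1.11e-09). Immediate early genes, which respond within minutes to handling and other stimuli, counted 2 higher in BALF and 10 in PLF out of 25 (median -0.57), and 5 and 6 when scaled to the pan-macrophage genes or without PLF of mouse 4. Without BALF of mouse 4 the counts were 2 and 6. Egr1 was read at 40.5, 35.0 and 34.0 CPM in BALF and 90.9, 287 and 339 CPM in PLF (log2 change -2.70 ± 0.41, adjusted p = 8.11e-05) and Maff at 151, 154 and 145 CPM in BALF and 11.9, 23.9 and 46.5 CPM in PLF (log2 change 2.43 ± 0.33, adjusted p = 1.67e-05). The list summed to 5810.0, 6999 and 4867 CPM in BALF and 5477, 8236 and 12252 CPM in PLF, which overlapped between lavages, with mouse 1 again the lowest in PLF. The part of the immediate early response in the inflammatory gene differences was not tested.

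**Figure D5:**
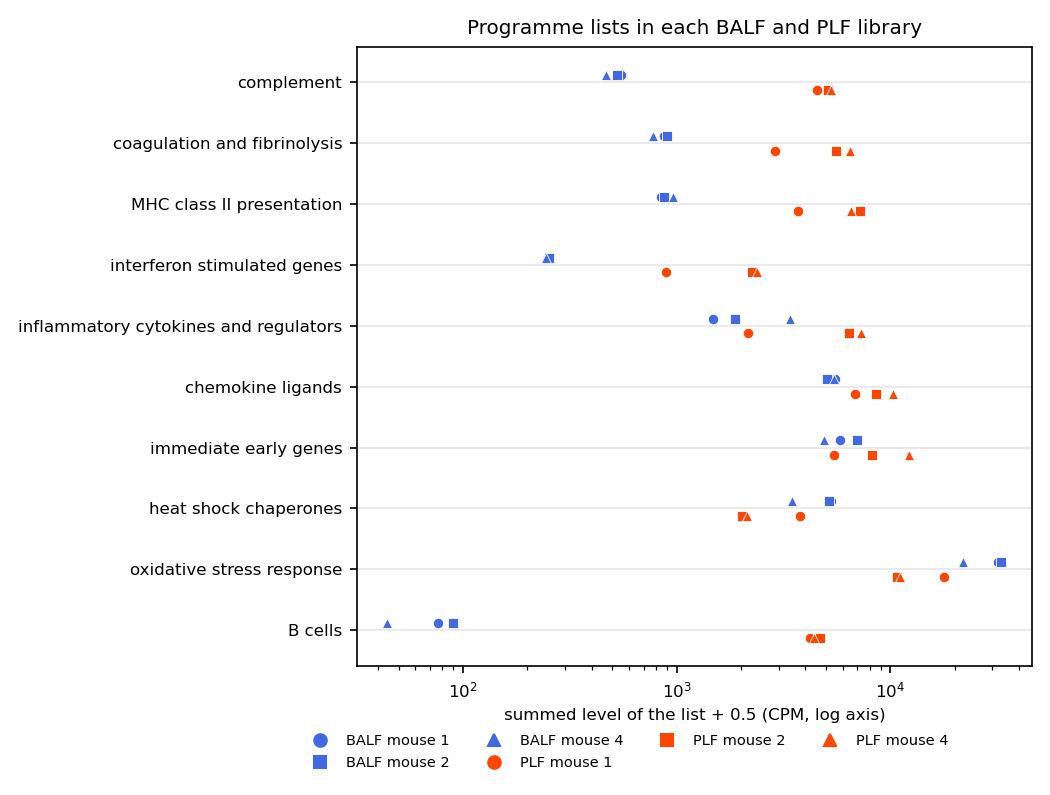
Summed level of 10 gene lists (CPM + 0.5, log axis) in each BALF (blue) and PLF (orange) library, with 1 symbol per mouse. PLF of mouse 1 (orange circle) lies below the other PLF libraries for MHC class II, interferon, inflammatory and coagulation sums (887 against 2256 and 2387 CPM for interferon genes) and above them for heat shock and oxidative stress sums, while its B cell sum is close to theirs.

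Stress genes, where they differed, were mostly higher in BALF. Oxidative stress genes counted 7 higher in BALF and 2 in PLF out of 20 (median 0.55), and 11 and 2 without PLF of mouse 1. Hmox1, haem oxygenase, was read at 12334, 12935 and 7406 CPM in BALF and 3378, 1532 and 1593 CPM in PLF (log2 change 2.33 ± 0.34, adjusted p = 3.60e-05), and Prdx1, a peroxiredoxin, at 8366, 6969 and 4566 CPM in BALF and 2419, 822 and 944 CPM in PLF (log2 change 2.25 ± 0.37, adjusted p = 1.53e-04). In both genes PLF of mouse 1 was the highest of its lavage and below every BALF library. Heat shock chaperones counted 8 of 12 higher in BALF. That count fell to 3 with library totals as the only scaling, without BALF of mouse 1, without PLF of mouse 2 or without PLF of mouse 4, to 4 without BALF of mouse 2, where 1 gene was higher in PLF, and to 5 in the 6 lavage libraries alone. Hspa1a was read at 146, 191 and 121 CPM in BALF and 41.5, 11.5 and 20.0 CPM in PLF (log2 change 2.62 ± 0.38, adjusted p = 4.19e-05). In iron handling, with 6 and 4 of 15, the PLF count fell to 2 without BALF of mouse 1, without PLF of mouse 4 or when scaled to the pan-macrophage genes. That count rose to 6 with library totals as the only scaling. Of the iron genes the exporter Slc40a1 was higher in BALF (log2 4.14 ± 0.49) and the phagosomal transporter Slc11a1 in PLF (log2 -3.19 ± 0.33).

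Lysosomal proteases and cystatins counted 6 higher in BALF and 3 in PLF out of 13, with the protease genes Ctsd (log2 2.14 ± 0.31) and Ctss (log2 1.62 ± 0.21) on the BALF side and Ctse (ratio 37.2, 95% interval 6.37 to 1499.7) on the PLF side. Glycolysis counted 2 and 1 of 14, led by Pkm (log2 1.47 ± 0.29), which was below the 40.3% called among all genes tested. It counted 5 and 1 with mouse as a block. Cell cycle genes counted 4 and 2 of 31, a share below that of all genes tested, and 2 and 4 with library totals as the only scaling. They counted 7 and 2 when scaled to the pan-macrophage genes, and 2 in BALF without any 1 of the PLF libraries. Mki67, a marker of dividing cells, was read at 28.6, 35.0 and 64.5 CPM in BALF and 30.3, 42.0 and 47.1 CPM in PLF, with overlapping lavages (adjusted p = 0.836). Pcna, of the replication fork, was higher in BALF (log2 1.23 ± 0.33) and Mcm6, of the replicative helicase, in PLF (log2 -2.12 ± 0.27).

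Monocyte and small peritoneal macrophage genes counted 10 of 12 higher in PLF and 1 in BALF, and summed to 20.2, 16.9 and 20.6 CPM in BALF and 1914, 2831 and 2290.5 CPM in PLF. Ccr2, the chemokine receptor of monocytes, was read at 1.40, 0 and 3.58 CPM in BALF and 41.5, 78.2 and 61.2 CPM in PLF (log2 change -5.05 ± 0.62, adjusted p = 1.18e-05). Ms4a4c (at least 28.9-fold) and the lectin gene Clec10a (at least 16.8-fold) had 0 counts in BALF. Cx3cr1, the fractalkine receptor, was low in both at 2.79, 9.04 and 4.48 CPM in BALF and 1.98, 11.5 and 10.6 CPM in PLF and was not called (adjusted p = 0.556). Of the 10 genes, 7 reached 10 CPM in a macrophage culture.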

How the data were processed

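RNA of lavage cells was sequenced as 3′ tags (QuantSeq FWD with unique molecular identifiers, 150 ng total RNA, 15 amplification cycles, 65 bp single-end reads), per the labels' protocols. The deposited values are raw counts per Ensembl gene, 1 file per library, made by the authors; the genome was GRCm38/mm10, per the submitters' processing notes, and for the aligner, the counter, the annotation and any collapsing of molecular identifiers the sources used here give nothing. The files hold 47643 gene identifiers and 5 lines without a gene, which stayed out of all totals. GENCODE M21 named 47224 of them. A 3′ tag count does not scale with transcript length, and genes with near-identical copies (the Ear ribonucleases, H2, Gimap, Ifit and immunoglobulin genes) may share reads.

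Counts were fitted with edgeR 4.0.16 (R 4.3.3, limma 3.58.1): filterByExpr, TMM scaling, robust quasi-likelihood fit of 12 libraries by cell type (BALF, PLF, BMDM, mexAM, mice 1, 2 and 4), with 8 residual degrees of freedom, and the contrast BALF minus PLF, adjusted over 10011 genes by Benjamini-Hochberg at 0.05. The standard error is the log2 change divided by the square root of F. On data simulated with the same spread for every gene, the fit called 36.4% of 2-fold changes and 89.9% of 4-fold changes. Of unchanged genes it called 0.0768%. The simulation held 99 genes changed 2-fold, 99 changed 4-fold and 9115 unchanged, a far smaller changed share than the 40.3% called in the data. The adjusted p threshold depends on that share, so these rates need not hold for the data. The lavages of a mouse are paired by the labels, and the deviations of the same mouse correlated at 0.22, 0.0024 and 0.13. Replicates are separate mice.

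Named genes passed the test with at least 50 CPM in the higher lavage and no overlap, taking the 15 largest higher in BALF and the 12 largest higher in PLF in each culture class, without predicted genes, pseudogenes and receptor segments. To these came up to 4 per direction and list at 10 CPM or more, and a set of standard markers. Some items of these groups are not reported here. The members and lists were chosen with earlier results of these data known. Promoters shown depart from the rule of the largest 3 per group, since those held no motif. Alternatives were DESeq2 1.42.0, other scalings, filters and library subsets.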

Additional observations from a re-analysis of the deposited data

How the results depend on the processing

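Counts of genes higher in BALF and in PLF (1952 and 2079) stayed within 1.5 times under 16 of 17 alternatives, between 1402 and 2077 for BALF and between 1769 and 2836 for PLF, the exception being 2956 for BALF and 1404 for PLF when libraries were scaled to the pan-macrophage genes. That scaling moved the median of all genes to 0.32 and gave BALF 67.8% of calls, against 48.4% in the reported fit, while library totals alone moved it to -0.27 and gave 33.1%. Without 1 library at a time the counts ranged from 1608 to 1940 for BALF and from 1769 to 2113 for PLF. With mouse as a replicate block the counts were 1887 and 1998 in 12 libraries and 1821 and 1973 in the 6 lavage libraries. Of the named genes tested in those fits, only Itgb2 and Fasn lost their call. DESeq2 gave 1768 and 2119. Of 218 called named genes, 201 kept direction and call under every alternative that tested them, and 17 lost the call in at least 1. Not every alternative tested every named gene. The fit without genes of other cells left out their markers, and the 6 lavage libraries alone tested 8636 genes. Mki67 (log2 change 0.10, not called) changed sign with library totals (-0.17), without BALF of mouse 4 (-0.35) and without PLF of mouse 1 (-0.07), ranging from -0.35 to 0.33 without 1 library at a time, and the cause was not tested. With culture limits of 5 and 0.5 CPM, 202 genes higher in PLF lay between the limits in place of 372, since the wider upper class took in more genes. The smallest library (985582 counts) gives 1.01 CPM per count before scaling, so folds of genes near 0 rest on few counts.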

Other observations

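Small numbers of blood and airway transcripts differed between the BALF libraries. Hbb-bs, a beta globin of red cells, was read at 23.7, 297 and 489 CPM in BALF and 12.5, 14.0 and 13.5 CPM in PLF (log2 change 4.32 ± 0.80, adjusted p = 9.49e-04), so the BALF libraries of mice 2 and 4 were high and that of mouse 1 was near PLF. Scgb1a1, the secretoglobin of airway club cells, was read at 0.698, 14.7 and 26.9 CPM in BALF and 0 counts in all 3 PLF libraries, in the same order of mice within BALF. Epcam, an epithelial adhesion molecule, did not share that order at 41.2, 44.1 and 35.8 CPM in BALF and 3.95, 6.58 and 15.3 CPM in PLF (log2 change 2.18 ± 0.42, adjusted p = 4.62e-04). Of the 15 lung epithelium genes 3 could be tested, and besides Epcam they were Napsa, an aspartic protease (log2 -1.83 ± 0.23), and Hopx, a homeodomain protein (log2 -2.76 ± 0.59), both higher in PLF. The list summed to 93.5, 105 and 109 CPM in BALF and 183, 165 and 156 CPM in PLF, so it was higher in PLF in all 3 mice.

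Hmox1 and Hspa1a had higher levels in both fresh lavages than in both cultures. Hmox1 averaged 10892 ± 3034 CPM in BALF and 2168 ± 1049 CPM in PLF (SD, n = 3), against 354 CPM in BMDM and 279.7 CPM in mexAM. Hspa1a, an inducible chaperone, averaged 153 ± 35.5 and 24.3 ± 15.5 CPM (SD, n = 3), against 1.83 and 0.942 CPM. Cd2, an adhesion receptor on the alveolar macrophage list, was read at 180.1, 236 and 236 CPM in BALF and 71.8, 78.2 and 77.7 CPM in PLF, and at 0.777 and 1.05 CPM on average in BMDM and mexAM. The difference between fresh cells and cultures was not tested here.

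Within the neutrophil list, 2 genes were higher in BALF. Mmp8 was read at 54.4, 49.7 and 58.2 CPM in BALF and 2.64, 5.76 and 1.77 CPM in PLF (log2 change 4.05 ± 0.61, adjusted p = 9.60e-05) and Cxcr2 at 6.28, 11.3 and 13.4 CPM in BALF and 0.659, 2.47 and 0.588 CPM in PLF (log2 change 3.06 ± 0.86, adjusted p = 0.0100). Of the 11 tested members 7 were not called, and 2, Csf3r among them, were higher in PLF. These counts are near the shares of all genes tested, 19.5% higher in BALF and 20.8% higher in PLF.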
